A study of Homo sapiens with 16 samples.

Results

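The change that EZH2 knockdown brought in HCC70 was compared, cluster by cluster, with the change it brought in MDA-MB-468. A transcript cluster is the set of array probes summarised for 1 gene or transcript region. Of the 33297 clusters on the array, 13876 (41.7%) had a group mean of log2 6 or above in at least 1 group of each line, and these are the members described here. They were chosen on signal and not on a test of change, but the rule is not blind to change. A cluster below log2 6 in 1 group of a line is a member only where that line's other group reached log2 6. Rises out of background are thus members only through their knockdown group. Among the genes named below, these include S100A7, SLCO2A1, SLC6A17, SNORD41, ZNF626, NT5E and ELOVL7 in HCC70. In MDA-MB-468 they include MT1E, GDA, SERPINB9 and HERC5. Of the members, 13123 reached log2 6 in all 4 groups and 753 lay below it in at least 1 group. Exactly 1 gene symbol was attached to 10100 members, several to 851 and none to 2925, so the named members stand for 9637 genes. Another member's values were repeated by 178 members.

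HCC70 and MDA-MB-468 are long-established human cell lines grown from basal-like breast cancers, and total RNA of both was hybridised to Affymetrix Human Gene 1.0 ST arrays. Cells of every group had been exposed to viral supernatant with polybrene, selected with puromycin, and plated at equal confluence on the day before extraction. The comparison rests on 8 arrays in 4 groups of 2: HCC70 with a scrambled shRNA (shCont, the arrays titled 1a and 2a, called set a), HCC70 with an shRNA against EZH2 (shEZH2), MDA-MB-468 with the scrambled shRNA and MDA-MB-468 with shEZH2. HCC70 has a further pair of scrambled arrays, titled 1b and 2b and called set b, which served as the other control; the labels do not say which set belongs to which knockdown. Stable selection gives a mixed population of infected cells, and the labels do not give the sequence of the shRNA.

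EZH2 is the methyltransferase of Polycomb repressive complex 2 (PRC2), which places methyl groups on histone H3 lysine 27. EED and SUZ12 are the core subunits that the enzyme needs for activity. Genes under the mark are held silent in many epithelial cells, so loss of EZH2 is known chiefly for the release of silenced genes, while the set of genes under the mark depends on the cell type.

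Array medians lay between 5.37 and 5.53 and duplicates correlated at r = 0.9935 to 0.9975 over the clusters. All 9 epithelial identity genes met the signal rule, with group means from 8.01 to 13.12. ESR1 (4.86 to 5.17) and PGR (3.57 to 3.72) did not, and ERBB2 lay between 6.93 and 8.16. Of 21 markers of blood, endothelial, stromal and muscle cells, 3 met the rule (CD68, CD14 and COL1A1). At the edge of the rule, DTX3 (6.0001), SNORA23 (6.0001) and HOXD1 (6.0017) were just inside and ACBD4 (5.9985), CHST7 (5.9982) and SENP8 (5.998) just outside. Nothing says that duplicates came from separate cultures, so p-values measure only the spread between these samples, which may be technical. RNA came from whole cultures, so fewer expressing cells and less RNA per cell cannot be told apart.

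EZH2 itself (cluster 8143663) read 10.01 and 10 in HCC70 set a, 8.5 and 8.58 in HCC70 shEZH2, 10.07 and 10.14 in MDA-MB-468 shCont and 8.39 and 8.48 in MDA-MB-468 shEZH2. The knockdown arrays lay below the control arrays in both lines without overlap. EZH2 fell by 1.47 ± 0.07 in HCC70 and by 1.67 ± 0.07 in MDA-MB-468 (log2 change ± SE, n = 2 arrays a group; limma adjusted p = 3.35e-07 and 2.56e-07). The difference between the lines, always given as HCC70 minus MDA-MB-468, was 0.21 ± 0.10 (adjusted p = 0.189). With set b as control the HCC70 change was -1.53. The targeted transcript was thus lowered in both lines, and the difference in its fall did not pass the test.

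EED (cluster 7942914), the subunit that reads the mark, changed by -0.12 in HCC70 and 0.18 in MDA-MB-468, neither past the threshold (adjusted p = 0.532 and 0.313). SUZ12 (cluster 8006325) read 9.52 and 9.52 in set a, 9.58 and 9.39 in HCC70 shEZH2, 10.17 and 10.45 in MDA-MB-468 shCont and 9.92 and 10.01 in MDA-MB-468 shEZH2. Its MDA-MB-468 value of -0.35 passed narrowly (adjusted p = 0.0469) and no longer did without shCont replicate 2 (-0.21), shEZH2 replicate 1 (-0.31), shEZH2 replicate 2 (-0.39) or either array of set a (-0.35). The difference in SUZ12 between the lines was 0.32 (adjusted p = 0.147). Against set b SUZ12 fell in HCC70 too (-0.31, limma adjusted p = 0.0336), and the difference was 0.04. Of 14 PRC2 genes listed, 11 met the signal rule, and only RBBP4, a histone-binding subunit, differed between the lines (0.40 ± 0.11, adjusted p = 0.0413). That RBBP4 call ended when any of 6 single arrays was left out (0.34 to 0.41), and with set b (0.25, adjusted p = 0.161). With set b 4 of the 11 fell in HCC70, where 15.7% of all members fell. With set a 1 fell, where 4.02% of all members did. In the difference with set b, 0 of the 11 lay above 0 and 1 below, against 7.96% and 7.85% of all members.

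Among the 12 measured genes of PRC1, the complex that ubiquitylates histone H2A, 5 differed between the lines with set a, 3 above 0 and 2 below. With set b only 1 lay above 0 and 1 below. Over the 9637 genes, 13.3% differed with set a, 10% above 0 and 3.31% below, and 16.8% differed with set b. PCGF5 (cluster 7929132), a RING-finger partner of a variant PRC1, read 6.50 and 6.15 in set a, 7.26 and 7.07 in HCC70 shEZH2, 8.42 and 8.71 in MDA-MB-468 shCont and 8.13 and 8.32 in MDA-MB-468 shEZH2. It rose by 0.84 in HCC70 (adjusted p = 0.00144) and stood at -0.34 in MDA-MB-468 (adjusted p = 0.116), with a difference of 1.18 ± 0.18 (adjusted p = 0.00214) that was 0.91 with set b. CBX6 (cluster 8076176), a chromodomain subunit, read 8.66 and 8.68 in set a, 8.34 and 8.34 in HCC70 shEZH2, 7.54 and 7.62 in MDA-MB-468 shCont and 7.87 and 7.81 in MDA-MB-468 shEZH2. CBX6 fell in HCC70 (-0.33, adjusted p = 0.0204; not called without set a replicate 1, -0.34, set a replicate 2, -0.32, or shEZH2 replicate 1, -0.33) and stood at 0.26 in MDA-MB-468 (adjusted p = 0.0635), and the difference of -0.59 ± 0.11 (adjusted p = 0.00693) stayed called with set b (-0.69). RYBP, another variant PRC1 subunit, fell in MDA-MB-468 (-0.54, -0.40 and not called without shCont replicate 2), and its difference of 0.64 was 0.29 and not called with set b.

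Across all members, limma called 947 rises (6.82%) and 558 falls (4.02%) in HCC70, and 388 rises (2.8%) and 785 falls (5.66%) in MDA-MB-468, at an adjusted p under 0.05. The difference between the lines was called in 1819 members (13.1%), 1228 of them above 0 (8.85%) and 591 below (4.26%). Another 10966 members were called in neither line and not in the difference. The median standard error was 0.11 for a change within a line and 0.15 for the difference. Shared rises numbered 54 and shared falls 73. Shared rises were 5.7% of the HCC70 rises and 13.9% of the MDA-MB-468 rises, and shared falls were 13.1% and 9.3% of the falls. The 2 changes went opposite ways in 130 members, with a rise in HCC70 and a fall in MDA-MB-468 in 106 and the reverse in 24. Of the HCC70 rises 11.2% fell in MDA-MB-468, where 5.66% of all members fell. Of the HCC70 falls 4.3% rose in MDA-MB-468, where 2.8% of all members rose. Line-specific changes, where 1 line and the difference were both called, numbered 478 rises and 203 falls in HCC70 and 182 rises and 315 falls in MDA-MB-468.

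**Figure D1:**
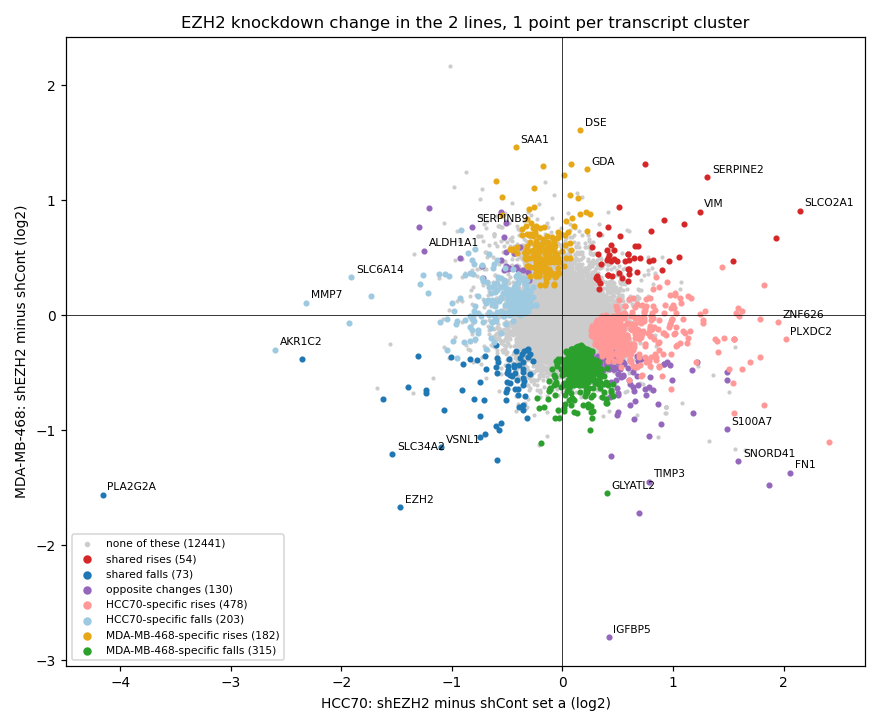
Change under EZH2 knockdown in HCC70 (x axis, shEZH2 minus shCont set a, log2) against MDA-MB-468 (y axis, shEZH2 minus shCont, log2), 1 point for each of the 13876 members, coloured by category. EZH2 and PLA2G2A lie in the lower left quadrant of shared falls, SERPINE2 in the upper right, and FN1 and IGFBP5 in the lower right.

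The 2 lines' changes correlated weakly across members (Pearson's r = -0.164, n = 13876), at -0.044 over members with 1 symbol and -0.371 over members with none; these share arrays and are a description. Of the MDA-MB-468-specific rises, 106 (58.2%) had no symbol, against 21.1% of all members. Where a change was specific to 1 line, the 95% interval of the other line's change often lay within 0.5 of 0: in 356 of 478 HCC70 rises, 153 of 203 HCC70 falls, 127 of 182 MDA-MB-468 rises and 254 of 315 MDA-MB-468 falls. In the same order, the other line's value had the opposite sign in 428, 165, 161 and 286. Of those, 139, 46, 40 and 93 had an unadjusted p under 0.05 in limma. In 567 members called in HCC70 alone and 419 called in MDA-MB-468 alone the difference was not called, so these are not counted as specific. In 489 members the difference was called though neither line was.

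Many of these calls depended on which scrambled set was subtracted in HCC70. Sets a and b, both scrambled controls, differed from each other in 3206 members (23.1%). With set b, HCC70 had 1541 rises (11.1%) and 2174 falls (15.7%), and the difference between the lines was called in 2193 members (15.8%), 1104 above 0 (7.96%) and 1089 below (7.85%). Of the 1819 differences called with set a, 892 (49.0%) were called the same way with set b and 24 the opposite way. A shared change is said to hold when HCC70 was called the same way against set b, and a line-specific or opposite change when its difference was, and also its HCC70 change where that had been called. By that count 63 of 73 shared falls, 36 of 54 shared rises and 124 of 182 MDA-MB-468-specific rises held. Only 56 of 130 opposite changes, 203 of 478 HCC70-specific rises, 100 of 203 HCC70-specific falls and 135 of 315 MDA-MB-468-specific falls did. The rule is looser for MDA-MB-468-specific changes, as it asks for the difference alone. Of these, 97 of 182 rises and 108 of 315 falls were still MDA-MB-468-specific with set b. The same shEZH2 arrays enter both, so holding is not a replication.

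**Figure D2:**
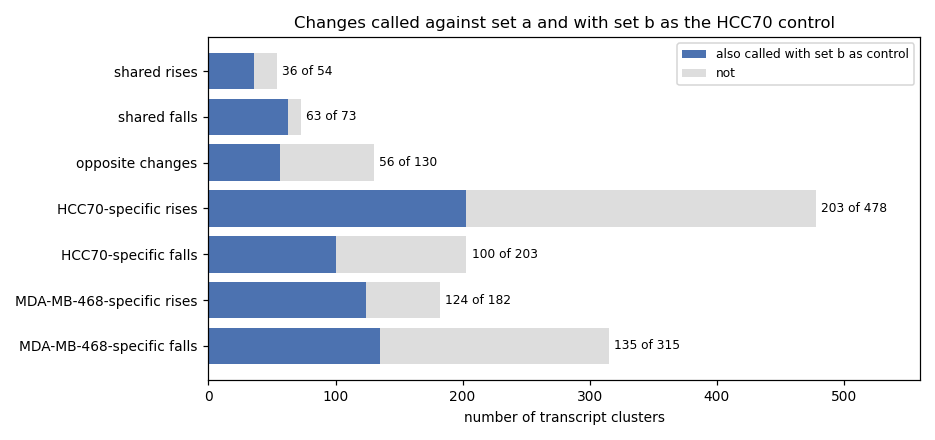
Number of members in each category (x axis), split by whether the change held, as defined in the text, with set b as the HCC70 control (blue) or not (grey). Shared falls kept 63 of 73 and HCC70-specific rises 203 of 478.

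Leaving out single arrays moved these counts too. Without MDA-MB-468 shCont replicate 2 the called differences numbered 707, shared rises 15, shared falls 34, opposite changes 25, and MDA-MB-468-specific rises and falls 28 and 38. Without set a replicate 2, differences numbered 728, HCC70-specific rises 167 and HCC70-specific falls 56. Calls of single genes that ended when 1 array was left out are given beside the gene.

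PLA2G2A (cluster 7913216) was the shared fall with the largest change in the less responsive line; it encodes a secreted phospholipase that releases fatty acids from phospholipids. PLA2G2A read 9.95 and 9.72 in set a, 5.65 and 5.71 in HCC70 shEZH2, 7.14 and 7.02 in MDA-MB-468 shCont and 5.71 and 5.33 in MDA-MB-468 shEZH2. Control and knockdown arrays were far apart in both lines, and the knockdown values of both lie below log2 6, where the array may understate a fall. PLA2G2A fell by 4.16 ± 0.12 in HCC70 (adjusted p = 4.38e-09) and by 1.56 ± 0.12 in MDA-MB-468 (adjusted p = 5.21e-05), and the larger fall in HCC70 passed the test of the difference (-2.60 ± 0.18, adjusted p = 1.02e-05; -2.81 with set b). MDA-MB-468 started from the lower level of the 2 lines.

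SLC34A2 (cluster 8094441), a sodium-phosphate cotransporter of epithelial surfaces, read 9.48 and 9.35 in set a, 7.95 and 7.80 in HCC70 shEZH2, 8.98 and 8.95 in MDA-MB-468 shCont and 7.95 and 7.56 in MDA-MB-468 shEZH2. It fell by 1.54 and 1.21 (adjusted p = 1.09e-05 and 0.000334), and the difference of -0.33 ± 0.17 did not pass (adjusted p = 0.223; -0.53 and called without MDA-MB-468 shEZH2 replicate 2). VSNL1 (cluster 8040430), a calcium sensor protein best known from neurons, read 8.90 and 8.86 in set a, 7.80 and 7.76 in HCC70 shEZH2, 7.80 and 7.94 in MDA-MB-468 shCont and 6.77 and 6.66 in MDA-MB-468 shEZH2. Its falls of 1.10 and 1.15 (adjusted p = 7.04e-06 and 2.23e-05) differed by 0.05 ± 0.12 (adjusted p = 0.791). Against set b, which read 8.27 and 8.32, VSNL1 fell by 0.51 in HCC70 and the difference was 0.64. CRYAB (cluster 7951662), a small heat shock chaperone, read 7.27 and 7.07 in set a, 6.32 and 5.89 in HCC70 shEZH2, 8.82 and 8.81 in MDA-MB-468 shCont and 8.02 and 7.97 in MDA-MB-468 shEZH2. It fell by 1.07 and 0.82 (adjusted p = 0.00073 and 0.00728; difference -0.25 ± 0.21, adjusted p = 0.455), though the MDA-MB-468 call ended without shCont replicate 2 (-0.82).

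Several shared falls, picked out after their values were seen, were pairs of genes whose products work together. GUCY1A1 (cluster 8097957) and GUCY1B1 (cluster 8097973) encode the alpha and beta chains of soluble guanylate cyclase, the receptor for nitric oxide. GUCY1A1 read 8.12 and 8.08 in set a, 7.76 and 7.53 in HCC70 shEZH2, 8.07 and 8.12 in MDA-MB-468 shCont and 7.57 and 7.56 in MDA-MB-468 shEZH2, falls of 0.46 and 0.53 (adjusted p = 0.0168 and 0.0134). GUCY1B1 read 8.32 and 8.08 in set a, 7.68 and 7.51 in HCC70 shEZH2, 9.30 and 9.39 in MDA-MB-468 shCont and 8.82 and 8.98 in MDA-MB-468 shEZH2, falls of 0.60 and 0.45 (adjusted p = 0.00198 and 0.0176). The arrays of control and knockdown did not overlap for either chain. The HCC70 call of GUCY1A1 ended without set a replicate 1 (-0.43), set a replicate 2 (-0.48) or shEZH2 replicate 2 (-0.34). In MDA-MB-468 both calls ended without shCont replicate 2 (-0.51 and -0.40) or shEZH2 replicate 1 (-0.53 and -0.37).

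The desmosomal cadherins, which fasten epithelial cells to each other, gave another pair. DSC2 (cluster 8022711) fell by 0.60 and 0.96 (adjusted p = 0.000218 and 2.6e-05), and its difference of 0.35 (adjusted p = 0.037) was 0.17 and not called with set b. The DSC2 difference was also not called without any 1 of 6 arrays (0.31 to 0.37), which were both of set a, HCC70 shEZH2 replicate 1, MDA-MB-468 shCont replicate 2 and both of MDA-MB-468 shEZH2. DSC3 (cluster 8022692) read 10.36 and 10.24 in set a, 9.79 and 9.43 in HCC70 shEZH2, 9.67 and 9.68 in MDA-MB-468 shCont and 9.11 and 9.31 in MDA-MB-468 shEZH2, falls of 0.69 and 0.47 (adjusted p = 0.00205 and 0.026). The MDA-MB-468 call of DSC3 ended without shCont replicate 1 (-0.47), shCont replicate 2 (-0.46) or shEZH2 replicate 1 (-0.36). PROM1 (cluster 8099476), the membrane glycoprotein CD133 used as a progenitor marker, fell by 1.23 and 0.65 (adjusted p = 7.04e-06 and 0.00238). SEMA3E (cluster 8140650), a secreted guidance cue, fell by 0.70 and 1.03 (adjusted p = 0.0029 and 0.000568). KRT4 (cluster 7963534), a keratin of stratified mucosa, fell in both lines by unequal amounts: 10.47 and 10.42 in set a against 8.14 and 8.03 in HCC70 shEZH2, but 9.73 and 9.80 in MDA-MB-468 shCont against 9.48 and 9.29 in MDA-MB-468 shEZH2. The KRT4 difference was -1.98 ± 0.12 (adjusted p = 6.27e-06; -1.67 with set b), and its fall of 0.38 in MDA-MB-468 was not called without shCont replicate 2 (-0.35) or shEZH2 replicate 2 (-0.29). All of these falls in DSC2, DSC3, PROM1, SEMA3E, KRT4 and the cyclase chains held against set b.

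Among shared rises, SERPINE2 (cluster 8059376), a secreted inhibitor of thrombin and plasminogen activators, had the largest change in the less responsive line. SERPINE2 read 6.91 and 7.0 in set a, 8.30 and 8.22 in HCC70 shEZH2, 6.67 and 6.70 in MDA-MB-468 shCont and 7.91 and 7.86 in MDA-MB-468 shEZH2. It started near the same level in both lines and ended more than 1 log2 unit higher in both. The rises were 1.31 ± 0.07 and 1.2 ± 0.07 (adjusted p = 1.25e-06 and 7.15e-06), the difference was 0.11 ± 0.10 (adjusted p = 0.533), and against set b the HCC70 rise was 1.36.

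SLCO2A1 (cluster 8090823), a prostaglandin transporter, read 5.84 and 5.64 in set a, 8.03 and 7.75 in HCC70 shEZH2, 6.08 and 6.05 in MDA-MB-468 shCont and 6.94 and 7.02 in MDA-MB-468 shEZH2. It rose in both lines and further in HCC70 (2.15 ± 0.16 and 0.91 ± 0.16, adjusted p = 6.78e-06 and 0.00661; difference 1.24 ± 0.22, adjusted p = 0.00565; 1.79 with set b). The MDA-MB-468 call ended without shCont replicate 2 (0.90). ELOVL7 (cluster 8112274), which lengthens fatty acids and was singled out after its values were seen, rose from 4.59 and 4.30 to 6.52 and 6.24 in HCC70, and from 7.85 and 7.71 to 8.44 and 8.47 in MDA-MB-468. Its HCC70 control lay below log2 6, so the difference of 1.26 ± 0.18 (adjusted p = 0.00152; 1.41 with set b) compares a rise out of background with a rise at higher signal. The MDA-MB-468 rise of 0.67 was not called without shCont replicate 2 (0.60). TGFBI (cluster 8108217), a matrix protein induced by TGF-beta, rose by 0.41 and 0.77 (adjusted p = 0.0122 and 0.000634) and by 0.68 against set b. The HCC70 call of TGFBI ended without set a replicate 1 (0.44), set a replicate 2 (0.39) or shEZH2 replicate 1 (0.30).

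VIM (cluster 7926368), the intermediate filament of mesenchymal and many basal-like cells, was a shared rise only against set a. VIM read 7.83 and 7.87 in set a, 9.26 and 9.26 in set b, 9.18 and 9.0 in HCC70 shEZH2, 7.13 and 7.25 in MDA-MB-468 shCont and 8.16 and 8.03 in MDA-MB-468 shEZH2. Set b lay above the HCC70 knockdown arrays. VIM rose by 1.24 ± 0.09 in HCC70 against set a (adjusted p = 7.04e-06), stood at -0.17 against set b (adjusted p = 0.209) and rose by 0.90 in MDA-MB-468 (adjusted p = 0.000371). The difference between the lines was 0.34 with set a (adjusted p = 0.112) and -1.07 with set b (adjusted p = 0.000346). DUSP6 (cluster 7965335), a phosphatase that switches off ERK, showed the same dependence. DUSP6 rose by 0.75 against set a (0.57 and not called without set a replicate 1), fell by 0.47 against set b (adjusted p = 0.0328), and rose by 1.32 in MDA-MB-468 (adjusted p = 0.000439). SLC6A17 (cluster 7903854), an amino acid transporter, read 5.26 and 5.38 in set a, 6.55 and 5.93 in HCC70 shEZH2, 7.87 and 7.52 in MDA-MB-468 shCont and 8.64 and 8.40 in MDA-MB-468 shEZH2. Its rises of 0.92 and 0.83 (adjusted p = 0.0139 and 0.0304) held against set b (1.33). They were not called in HCC70 without set a replicate 1 (0.86), set a replicate 2 (0.97) or shEZH2 replicate 1 (0.60), nor in MDA-MB-468 without shCont replicate 2 (0.65) or shEZH2 replicate 1 (0.71).

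Several metallothioneins, small cysteine-rich proteins that bind zinc and copper, rose in both lines against set a. Of 6 MT1 and MT2 genes measured, 4 rose in HCC70 and 5 in MDA-MB-468. Rises made up 7.7% of all genes in HCC70 and 2.08% in MDA-MB-468. Shared rises, 0.389% of all members, were 4 of the 6 (MT1E, MT2A, MT1F and MT1G), of which MT1E and MT2A held. Against set b MT1F stood at 0.05 and MT1G at 0.40 in HCC70, neither called. In limma's fit the difference was called in 0 of the 6 with set a, and in 1, below 0, with set b. With set a 1 difference, below 0, had an unadjusted p under 0.05. Their sequences are near-identical, so the array may not tell them apart and the single-gene values are uncertain. MT1E (cluster 7995797) read 7.29 and 7.14 in set a, 8.23 and 8.40 in HCC70 shEZH2, 5.55 and 5.10 in MDA-MB-468 shCont and 6.04 and 6.18 in MDA-MB-468 shEZH2. It rose by 1.10 ± 0.14 and 0.79 (adjusted p = 0.000566 and 0.00888; 0.97 against set b, and 0.56 and not called in MDA-MB-468 without shCont replicate 2). MT2A (cluster 8095362, 1 of 3 with that symbol) read 12.24 and 12.14 in set a, 12.45 and 12.53 in set b, 12.80 and 12.78 in HCC70 shEZH2, 12.33 and 12.25 in MDA-MB-468 shCont and 12.71 and 12.58 in MDA-MB-468 shEZH2. It read above log2 12 on every one of these arrays and rose by 0.60 and 0.36 (adjusted p = 0.000632 and 0.0221; 0.30 against set b). The MDA-MB-468 call of MT2A ended without shCont replicate 2 (0.32) or shEZH2 replicate 1 (0.29). The 250 bases before the MT2A start site (RefSeq, GRCh38.p14, chr16:56608334-56608583, plus strand, 5′ to 3′) are printed because metallothionein promoters are known for repeated metal response elements. Capitals mark the 7 matches to TGCGCNC or TGCACNC on either strand; a match on the other strand reads GNGCGCA or GNGTGCA.
MT2A: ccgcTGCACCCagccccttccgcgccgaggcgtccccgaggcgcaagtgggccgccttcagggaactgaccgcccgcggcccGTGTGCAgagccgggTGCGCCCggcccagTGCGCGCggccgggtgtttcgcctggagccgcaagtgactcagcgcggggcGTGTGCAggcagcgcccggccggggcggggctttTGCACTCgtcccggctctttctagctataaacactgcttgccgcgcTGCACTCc
Of the 6 genes, 3 had a promoter in the table (MT2A, MT1X and MT1B), with 7, 4 and 3 matches, so all of these held at least 2 matches. Only MT2A of these was a shared rise. MT1X stood at 0.04 in HCC70 and 0.62 in MDA-MB-468, and MT1B at 0.25 and 0.12. The shared rises MT1E, MT1F and MT1G had no promoter in the table, so the matches cannot be set against the shared rises. At least 2 matches were found in 10.2% of the promoters of member genes and in 6.51% of all 27305 promoters in the table. A match is a string of letters and does not show binding.

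**Figure D3:**
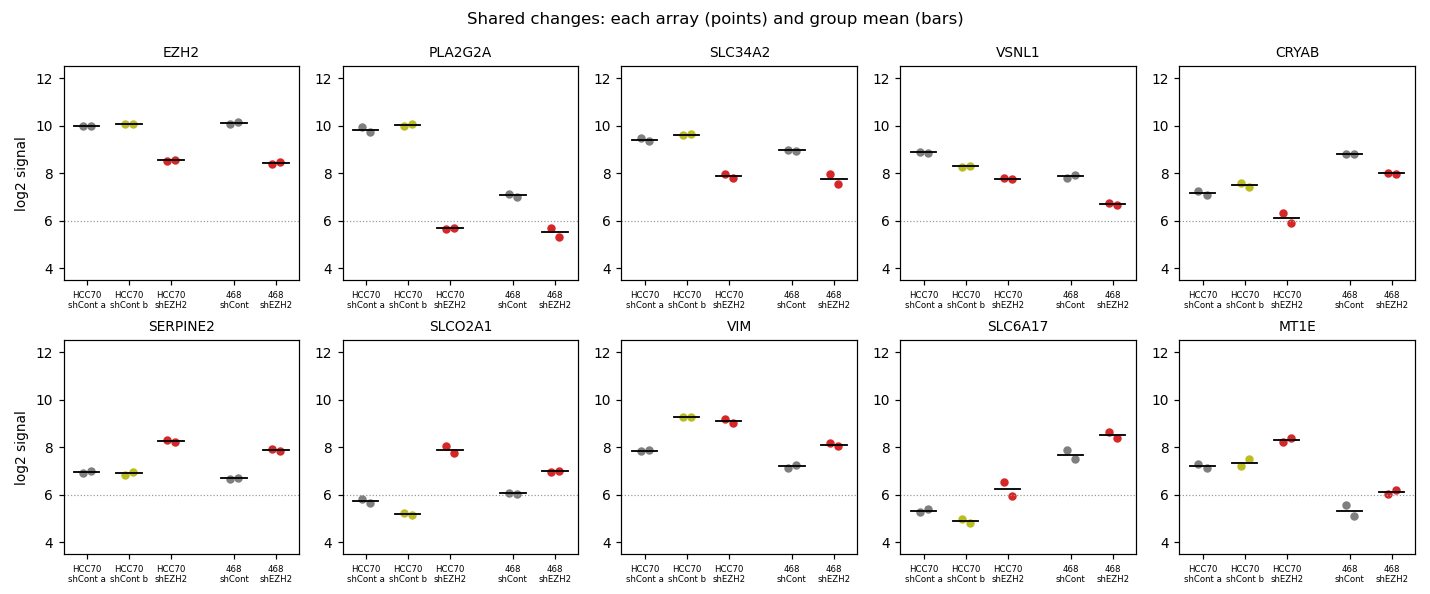
Log2 signal of each array (points) and group mean (bars) for 10 shared changes, with the HCC70 controls of set a and set b, HCC70 shEZH2, and the MDA-MB-468 control and knockdown side by side; the dotted line marks log2 6. EZH2, PLA2G2A, SLC34A2, VSNL1 and CRYAB were lower with shEZH2 in both lines, SERPINE2, SLCO2A1, SLC6A17 and MT1E higher, and VIM in set b (9.26 and 9.26) lay above HCC70 shEZH2.

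With set a as control, interferon response genes had the largest median difference of the lists examined. Of 46 genes listed, 28 met the signal rule, 14 fell outside it and 4 had no cluster of their own. In HCC70 24 rose and 1, IFITM2, fell (-0.42), against 7.7% and 4.34% of all genes. In MDA-MB-468 2 rose and 4 fell, against 2.08% and 6.79% of all genes. The difference was above 0 in 18 and below 0 in 0, against 10% above and 3.31% below over the 9637 genes. At an unadjusted p under 0.05 in limma, 25 differences were above 0 and 1 below. Leaving out 1 array gave 14 to 20 above 0. The median change was 0.76 in HCC70 and -0.03 in MDA-MB-468, with a median difference of 0.74 against 0.074 over all genes. With set b the median HCC70 change was 0.33 and the median difference 0.29, against 0.029 over all genes. That was still the largest list median above 0. Other lists lay further from 0 with set b, among them the EGFR family (-0.94) and MAP kinase feedback genes (-0.64). With that control 10 interferon genes were above 0 and 1 below, against 7.96% and 7.85% of all members. All 10 were also above 0 with set a. This list was written with earlier results of these arrays known, so its direction is no independent evidence.

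The antiviral genes that differed most did not all hold. MX1 (cluster 8068713), a GTPase that blocks viral replication, read 8.86 and 8.80 in set a, 10.06 and 10.04 in set b, 10.43 and 10.21 in HCC70 shEZH2, 7.29 and 7.41 in MDA-MB-468 shCont and 6.82 and 6.77 in MDA-MB-468 shEZH2. Set b lay close below the HCC70 knockdown arrays. MX1 rose by 1.49 against set a (adjusted p = 2.64e-06), stood at 0.27 against set b (adjusted p = 0.0578) and fell by 0.56 in MDA-MB-468 (adjusted p = 0.00692; -0.50 and not called without shCont replicate 2), with a difference of 2.05 ± 0.14 (adjusted p = 1.02e-05). IFIH1, a cytoplasmic sensor of double-stranded RNA, likewise rose by 1.13 against set a and stood at 0.35 against set b, where it was not called, and its difference was 1.37 with set a. IFITM1, a membrane protein that limits viral entry, rose by 0.68 in HCC70 (0.64 and not called without set a replicate 2) and fell by 0.61 in MDA-MB-468. The fall was -0.42 without MDA-MB-468 shCont replicate 2, -0.64 without shEZH2 replicate 1 and -0.58 without shEZH2 replicate 2, and called in none of these. IFITM1 stood at 0.37 against set b, where it was not called.

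IFI6 (cluster 7914127), an interferon-induced membrane protein, read 11.5 and 11.31 in set a, 11.97 and 11.93 in set b, 12.71 and 12.53 in HCC70 shEZH2, 6.89 and 6.90 in MDA-MB-468 shCont and 6.39 and 6.59 in MDA-MB-468 shEZH2. All HCC70 arrays lay more than 4 log2 units above all MDA-MB-468 arrays. IFI6 rose by 1.22 against set a (adjusted p = 2.06e-05) and 0.67 against set b. Its fall of 0.41 in MDA-MB-468 (adjusted p = 0.0351) was not called without shCont replicate 1 (-0.42), shCont replicate 2 (-0.40) or shEZH2 replicate 1 (-0.31). The IFI6 difference was 1.63 ± 0.15 (adjusted p = 7.53e-05; 1.08 with set b). DDX60 (cluster 8103563), a helicase linked to the sensing of viral RNA, read 7.71 and 7.74 in set a, 8.92 and 8.82 in HCC70 shEZH2, 6.35 and 6.63 in MDA-MB-468 shCont and 6.22 and 6.36 in MDA-MB-468 shEZH2. DDX60 rose by 1.14 in HCC70 (adjusted p = 2.46e-05; 0.38 against set b) and stood at -0.20 in MDA-MB-468 (adjusted p = 0.231), a difference of 1.35 (adjusted p = 0.000208; 0.58 with set b). PARP14 (cluster 8082100), an ADP-ribosyltransferase, read 9.06 and 9.08 in set a, 9.93 and 9.96 in HCC70 shEZH2, 8.97 and 9.10 in MDA-MB-468 shCont and 8.82 and 8.79 in MDA-MB-468 shEZH2. The control levels of PARP14 were alike in both lines, and the difference was 1.10 (adjusted p = 0.000161; 0.75 with set b). PARP9 (cluster 8090018), its partner in interferon signalling, gave 0.75 in HCC70, -0.27 in MDA-MB-468 and a difference of 1.03 ± 0.14 (adjusted p = 0.000995; 0.94 with set b); the MDA-MB-468 value was called without shCont replicate 1 (-0.42).

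The 2 interferon genes that rose in both lines, HERC5 and IFI44, were named with DDX60, PARP14, PARP9 and IFITM1 after their values were seen. HERC5 (cluster 8096361), the ligase that attaches ISG15 to proteins, read 7.32 and 7.5 in set a, 8.41 and 8.33 in HCC70 shEZH2, 5.59 and 5.80 in MDA-MB-468 shCont and 6.11 and 6.22 in MDA-MB-468 shEZH2. It rose by 0.96 and 0.47 (adjusted p = 0.000346 and 0.0351; difference 0.50, adjusted p = 0.0713, and 0.60 and called without MDA-MB-468 shCont replicate 1; 0.67 against set b). IFI44 (cluster 7902553) read 9.11 and 9.16 in set a, 9.73 and 9.89 in HCC70 shEZH2, 6.55 and 6.67 in MDA-MB-468 shCont and 6.98 and 7.0 in MDA-MB-468 shEZH2. It rose by 0.67 and 0.38 (MDA-MB-468 adjusted p = 0.0263; difference 0.29, adjusted p = 0.15; 0.35 against set b). The MDA-MB-468 calls of both ended when any 1 of the 4 MDA-MB-468 arrays was left out (0.36 to 0.57 for HERC5 and 0.32 to 0.44 for IFI44).

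The bases around interferon-stimulated response elements of 5 of these genes are printed so that genes that rose in HCC70 alone or in opposite directions (IFI6, DDX60, PARP14) can be set beside genes that rose in both lines (HERC5, IFI44). They are RefSeq sequences of GRCh38.p14, written 5′ to 3′ on the gene's strand, each from 15 bases before the first match to 15 after the last where the window before the start site allows. Capitals mark the motif, GAAA followed by any 2 bases and GAAA again, or its reverse complement of TTTC, any 2 bases and TTTC in HERC5 and IFI44. The first capital run of HERC5 holds 2 overlapping matches. The windows are chr1:27672261-27672363 (minus strand, 3 matches) for IFI6, chr4:168318781-168318855 (minus strand, 2 matches) for DDX60, chr3:122680795-122680834 (plus strand, 1 match) for PARP14, chr4:88456979-88457069 (plus strand, 3 matches) for HERC5 and chr1:78649756-78649788 (plus strand, 1 match) for IFI44.
IFI6: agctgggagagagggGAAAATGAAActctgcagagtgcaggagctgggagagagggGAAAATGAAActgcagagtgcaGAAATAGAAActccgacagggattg
DDX60: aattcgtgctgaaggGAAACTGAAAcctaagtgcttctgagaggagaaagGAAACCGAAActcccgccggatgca
PARP14: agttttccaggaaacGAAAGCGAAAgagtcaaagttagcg
HERC5: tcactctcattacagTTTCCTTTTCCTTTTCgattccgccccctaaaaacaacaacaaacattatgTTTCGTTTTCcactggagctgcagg
IFI44: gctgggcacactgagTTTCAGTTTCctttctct
The motif was found, on either strand within 250 bases before the start site, in 13 of 23 interferon list promoters (56.5%), against 170 promoters (2.14%) of the 7944 member genes with one and 3.07% of all promoters in the table. It was in 8 of 16 (50.0%) whose difference was above 0 and in 5 of 7 (71.4%) whose difference was not called. Only 70.0% of the list genes whose difference was not called had a promoter in the table, so these 2 shares cannot be compared. The motif was thus present both in list genes whose difference was called and in those whose difference was not.

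Fibronectin had the largest difference among opposite changes. FN1 (cluster 8058765), the matrix glycoprotein that integrins bind, read 7.01 and 6.91 in set a, 8.78 and 8.91 in set b, 9.11 and 8.93 in HCC70 shEZH2, 8.40 and 8.56 in MDA-MB-468 shCont and 7.38 and 6.84 in MDA-MB-468 shEZH2. FN1 rose by 2.06 ± 0.15 in HCC70 against set a (adjusted p = 6.78e-06) and fell by 1.37 ± 0.15 in MDA-MB-468 (adjusted p = 0.000439). Set b lay close to the HCC70 knockdown arrays, so against it the HCC70 value was 0.18 (adjusted p = 0.414). The difference was 3.43 ± 0.21 with set a (adjusted p = 6.27e-06) and 1.54 with set b, still called, and rested there on the fall in MDA-MB-468.

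Matrix genes did not all move alike: TGFBI, described above, rose in both lines. The 4 described next, all picked after their values were seen because they rose in HCC70 and fell in MDA-MB-468, are no fixed list. TNC (cluster 8163637), the matrix protein tenascin C, read 8.85 and 8.77 in set a, 9.60 and 9.52 in HCC70 shEZH2, 7.03 and 6.94 in MDA-MB-468 shCont and 6.56 and 6.13 in MDA-MB-468 shEZH2 (0.75 and -0.64, adjusted p = 0.00172 and 0.00795). NPNT (cluster 8096704), the integrin ligand nephronectin, fell by 1.22 in MDA-MB-468 (adjusted p = 0.000364), while its rise of 0.44 in HCC70 was not called when any 1 of 7 arrays was left out (0.21 without shEZH2 replicate 1). LOXL2 (cluster 8149774), which cross-links collagen, rose by 0.50 and fell by 0.68, and its HCC70 call ended without set a replicate 1 (0.33) or shEZH2 replicate 1 (0.43). Against set b the HCC70 values of TNC (0.09), NPNT (0.21) and LOXL2 (0.24) were not called. EFEMP1 (cluster 8052355), the matrix protein fibulin-3, did hold: it read 10 and 10.05 in set a, 10.58 and 10.48 in HCC70 shEZH2, 9.82 and 9.88 in MDA-MB-468 shCont and 9.14 and 8.87 in MDA-MB-468 shEZH2. EFEMP1 rose by 0.50 and fell by 0.84 (adjusted p = 0.00465 and 0.000416), a difference of 1.34 ± 0.13 (adjusted p = 0.000109; 1.37 with set b).

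IGFBP5, TIMP3, BMP2 and BNIP3 were opposite changes that held. IGFBP5 (cluster 8058857), which binds insulin-like growth factors, read 6.58 and 6.65 in set a, 7.08 and 6.98 in HCC70 shEZH2, 7.76 and 7.76 in MDA-MB-468 shCont and 4.92 and 4.99 in MDA-MB-468 shEZH2. The fall in MDA-MB-468, 2.80 ± 0.10 to below log2 6 (adjusted p = 5.07e-08), carried nearly all of the difference of 3.22 ± 0.14 (adjusted p = 2.79e-07; 3.18 with set b). Its rise of 0.42 in HCC70 (adjusted p = 0.018) was not called without set a replicate 1 (0.38), set a replicate 2 (0.45) or shEZH2 replicate 1 (0.36). TIMP3 (cluster 8072626), an inhibitor of matrix proteases, read 6.33 and 6.33 in set a, 7.29 and 6.94 in HCC70 shEZH2, 8.76 and 8.69 in MDA-MB-468 shCont and 7.24 and 7.31 in MDA-MB-468 shEZH2. TIMP3 rose by 0.78 and fell by 1.45 (adjusted p = 0.00131 and 5.21e-05), so the lines, which differed by more than 2 log2 units in their controls, ended near the same level. Its relative TIMP1 (cluster 8167185) was opposite with set a alone: it rose by 0.54 in HCC70 (adjusted p = 0.00251) and fell by 0.33 in MDA-MB-468 (adjusted p = 0.0425), but fell by 0.35 in HCC70 against set b (adjusted p = 0.0128), where the difference of 0.87 was -0.02. The MDA-MB-468 call of TIMP1 ended without any 1 of its 4 arrays (-0.38 to -0.28) or either array of set a (-0.33). BMP2 (cluster 8060850), a secreted ligand of the TGF-beta family, rose by 0.92 in HCC70 and fell by 0.42 in MDA-MB-468 (adjusted p = 0.0447). That MDA-MB-468 call ended without shCont replicate 2 (-0.25), shEZH2 replicate 1 (-0.51), shEZH2 replicate 2 (-0.32) or either array of set a (-0.42); the BMP2 difference was 1.33 ± 0.16 (adjusted p = 0.000525). TIMP3 and BMP2, both on the list of described Polycomb targets, rose in HCC70 and fell in MDA-MB-468, with EZH2 lowered in both. BNIP3 (cluster 7937079), a mitophagy receptor induced by low oxygen, rose by 1.17 and fell by 0.48 (-0.39 and not called without MDA-MB-468 shCont replicate 2), a difference of 1.64 ± 0.12 (adjusted p = 2.05e-05; 1.43 with set b).

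S100A7 (cluster 7920252), the calcium-binding protein psoriasin of stressed squamous epithelium, read 4.90 and 4.81 in set a, 6.03 and 6.66 in HCC70 shEZH2, 8.17 and 8.90 in MDA-MB-468 shCont and 7.49 and 7.61 in MDA-MB-468 shEZH2. It rose by 1.49 ± 0.24 from below log2 6 (adjusted p = 0.00229) and fell by 0.99 (adjusted p = 0.0299), a difference of 2.48 ± 0.34 (adjusted p = 0.00113). SNORD41 (cluster 8034512), a small nucleolar RNA that guides methylation of ribosomal RNA, read 5.71 and 5.81 in set a, 7.12 and 7.58 in HCC70 shEZH2, 6.87 and 7.94 in MDA-MB-468 shCont and 6.25 and 6.04 in MDA-MB-468 shEZH2. Its control arrays in MDA-MB-468 were more than 1 log2 unit apart. SNORD41 rose by 1.59 ± 0.27 and fell by 1.27 ± 0.27 (adjusted p = 0.00283 and 0.0169; difference 2.85 ± 0.38, adjusted p = 0.000876). Both held, but the MDA-MB-468 falls were not called without shCont replicate 2 (-0.73 for SNORD41 and -0.62 for S100A7), shEZH2 replicate 1 (-1.37 and -0.93) or shEZH2 replicate 2 (-1.16 and -1.04).

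In the reverse direction, ALDH1A1 (cluster 8161755), a retinaldehyde dehydrogenase used as a marker of mammary progenitors, lay level in all controls. ALDH1A1 read 10.12 and 10.08 in set a, 10.02 and 10.01 in set b, 8.93 and 8.77 in HCC70 shEZH2, 10.01 and 10.07 in MDA-MB-468 shCont and 10.65 and 10.55 in MDA-MB-468 shEZH2. All 3 control groups were near log2 10, and the knockdown arrays lay below them in HCC70 and above them in MDA-MB-468. ALDH1A1 fell by 1.25 ± 0.08 (adjusted p = 2.64e-06) and rose by 0.56 ± 0.08 (adjusted p = 0.00265), a difference of -1.80 ± 0.11 (adjusted p = 6.67e-06) that held. SERPINB9 (cluster 8123609), an inhibitor of granzyme B, read 7.35 and 7.15 in set a, 6.67 and 6.19 in HCC70 shEZH2, 5.25 and 5.76 in MDA-MB-468 shCont and 6.26 and 6.30 in MDA-MB-468 shEZH2. Its difference of -1.59 ± 0.23 (adjusted p = 0.0017) held, though the fall of 0.82 was not called without set a replicate 1 (-0.72), nor the rise of 0.77 without MDA-MB-468 shCont replicate 1 (0.52), shEZH2 replicate 1 (0.80) or shEZH2 replicate 2 (0.75). EPHB6 (cluster 8136811), an ephrin receptor without kinase activity, rose by 0.90 in MDA-MB-468 (adjusted p = 0.00216). In HCC70 EPHB6 fell by 0.56 against set a (adjusted p = 0.0149) and stood at 0.05 against set b, so it did not hold as an opposite change. The fall was not called without set a replicate 1 (-0.54), set a replicate 2 (-0.57) or shEZH2 replicate 2 (-0.39). The EPHB6 difference of -1.46 (adjusted p = 0.000535) was -0.85 with set b and still called (adjusted p = 0.00794).

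The HCC70-specific rises with the largest differences all held against set b. PLXDC2 (cluster 7926545), a membrane protein with a plexin-like domain, read 7.68 and 7.54 in set a, 8.26 and 8.27 in set b, 9.73 and 9.53 in HCC70 shEZH2, 9.41 and 9.47 in MDA-MB-468 shCont and 9.28 and 9.20 in MDA-MB-468 shEZH2. Knockdown brought the HCC70 arrays up to the level of the MDA-MB-468 arrays. PLXDC2 rose by 2.02 ± 0.09 (adjusted p = 2.15e-07; 1.37 against set b), while the MDA-MB-468 value was -0.21 (95% interval -0.41 to -0.01), a difference of 2.23 ± 0.13 (adjusted p = 4.54e-06). COL12A1 (cluster 8127563), a collagen that coats larger fibrils, read 6.63 and 6.53 in set a, 8.53 and 8.21 in HCC70 shEZH2, 6.43 and 6.63 in MDA-MB-468 shCont and 6.23 and 6.12 in MDA-MB-468 shEZH2. The controls of both lines started level. COL12A1 rose by 1.79 ± 0.11 in HCC70 (adjusted p = 1.73e-06) and stood at -0.36 in MDA-MB-468 (adjusted p = 0.0606; -0.46 and called without shCont replicate 1), a difference of 2.14 (adjusted p = 1.18e-05). AK5 (cluster 7902452), an adenylate kinase, rose by 1.54 in HCC70 (adjusted p = 0.000194) and by 0.51 against set b, and stood at -0.59 in MDA-MB-468 (adjusted p = 0.0593; difference 2.13, adjusted p = 0.000396). With either HCC70 shEZH2 array left out, the same -0.59 of AK5 passed. S100A8 (cluster 7920244), a chain of the inflammatory protein calprotectin, read 8.99 and 8.92 in set a, 10.66 and 10.65 in HCC70 shEZH2, 10.79 and 11.19 in MDA-MB-468 shCont and 10.72 and 10.44 in MDA-MB-468 shEZH2. It rose by 1.70 (adjusted p = 7.04e-06; 1.88 against set b) to the MDA-MB-468 level, where it stood at -0.41 (adjusted p = 0.068; -0.61 and called without shCont replicate 1; difference 2.11, adjusted p = 4.77e-05). ZNF626 (cluster 8035779), a zinc finger gene, read 5.63 and 5.96 in set a, 7.81 and 7.69 in HCC70 shEZH2, 8.89 and 9.03 in MDA-MB-468 shCont and 8.84 and 8.95 in MDA-MB-468 shEZH2. It rose by 1.95 in HCC70 and stood at -0.06 in MDA-MB-468 (difference 2.01, adjusted p = 0.00152).

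Further HCC70-specific rises, picked after their values were seen, also held against set b. CST6 (cluster 7941505), a secreted inhibitor of cysteine proteases, read 6.40 and 6.40 in set a, 6.27 and 6.42 in set b, 8.13 and 7.91 in HCC70 shEZH2, 8.11 and 8.19 in MDA-MB-468 shCont and 8.26 and 8.13 in MDA-MB-468 shEZH2. It rose by 1.62 ± 0.10 (adjusted p = 1.61e-06) and by 1.67 against set b, with 0.04 in MDA-MB-468 (adjusted p = 0.813). NT5E (cluster 8120967), the CD73 ectoenzyme that makes adenosine, read 5.54 and 5.90 in set a, 7.57 and 7.06 in HCC70 shEZH2, 10.89 and 10.84 in MDA-MB-468 shCont and 10.78 and 11.08 in MDA-MB-468 shEZH2. NT5E rose by 1.59 ± 0.18 (adjusted p = 0.000179) and stayed more than 3 log2 units below MDA-MB-468. BASP1 (cluster 8104601), a membrane-associated protein that also acts as a transcriptional corepressor, rose by 1.82 ± 0.12 (adjusted p = 2.64e-06; 1.57 against set b) and stood at 0.26 in MDA-MB-468 (0.45 and called without shEZH2 replicate 2). VLDLR (cluster 8154100), a lipoprotein receptor, rose by 0.77 against set a and by 1.42 against set b, with a difference of 0.92 ± 0.11 (adjusted p = 0.000595).

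The HCC70-specific falls with the largest differences held too. MMP7 (cluster 7951217), the epithelial matrix protease matrilysin, read 9.39 and 9.57 in set a, 9.06 and 9.10 in set b, 6.95 and 7.37 in HCC70 shEZH2, 10.04 and 10.31 in MDA-MB-468 shCont and 10.33 and 10.25 in MDA-MB-468 shEZH2. It fell by 2.32 ± 0.13 in HCC70 (adjusted p = 1.46e-06), while the MDA-MB-468 value was 0.11 (95% interval -0.18 to 0.41; difference -2.43, adjusted p = 2.45e-05). AKR1C2 (cluster 7931832), an aldo-keto reductase that inactivates steroids, read 7.86 and 7.62 in set a, 8.45 and 8.57 in set b, 5.28 and 5.0 in HCC70 shEZH2, 10.63 and 10.67 in MDA-MB-468 shCont and 10.31 and 10.38 in MDA-MB-468 shEZH2. The HCC70 knockdown arrays lay below log2 6. AKR1C2 fell by 2.60 (adjusted p = 1.77e-06; 3.37 against set b) and stood at -0.30 in MDA-MB-468 (95% interval -0.65 to 0.04; difference -2.30, adjusted p = 0.000109). Its close relatives split between the lines, though their similar sequences make single values uncertain. AKR1C1 (cluster 8180376) fell in HCC70 (-0.89, against -0.23 in MDA-MB-468; difference -0.67 ± 0.13, adjusted p = 0.00741). AKR1C3 (cluster 7925929), which makes testosterone from its precursor, read 11.04 and 10.96 in set a, 11 and 10.95 in HCC70 shEZH2, 8.47 and 8.72 in MDA-MB-468 shCont and 7.80 and 7.62 in MDA-MB-468 shEZH2. AKR1C3 fell in MDA-MB-468 alone (-0.89, against -0.03; difference 0.86 ± 0.15, adjusted p = 0.00458).

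Several HCC70-specific falls encode membrane transporters. Of 184 genes whose symbols begin with SLC, a family picked after values were seen, 12 rose and 22 fell in HCC70. Among all genes 7.7% rose and 4.34% fell there. In MDA-MB-468 10 SLC genes rose and 9 fell, against 2.08% and 6.79% of all genes. The difference was above 0 in 7 SLC genes (3.80%) and below in 14 (7.61%), against 9.64% and 3.28% of the 9148 genes of no family singled out here. With set b 8 SLC genes lay above 0 and 33 below, against 782 and 741 of those 9148 genes. SLC6A14 (cluster 8169504), an importer of neutral and basic amino acids, read 9.22 and 9.08 in set a, 10.76 and 10.71 in set b, 7.46 and 7.01 in HCC70 shEZH2, 9.41 and 9.27 in MDA-MB-468 shCont and 9.51 and 9.85 in MDA-MB-468 shEZH2. It fell by 1.91 against set a (adjusted p = 1.02e-05) and 3.5 against set b, and stood at 0.33 in MDA-MB-468 (adjusted p = 0.188; difference -2.25, adjusted p = 0.000107). SLC5A1 (cluster 8072587), the sodium-glucose cotransporter of the gut, fell by 1.26 (adjusted p = 0.000796), with a difference of -1.61 ± 0.25 (adjusted p = 0.00225) and of -3.56 with set b, where its control read 8.40 and 8.31 rather than 6.48 and 6.33. SLC15A2 (cluster 8082012), a peptide transporter, fell by 1.22 (adjusted p = 1.15e-05; difference -1.42 ± 0.14, adjusted p = 0.000117; -1.88 with set b). RNF128 (cluster 8169174), a membrane-bound ubiquitin ligase, read 6.87 and 7.09 in set a, 5.16 and 5.33 in HCC70 shEZH2, 6.59 and 6.72 in MDA-MB-468 shCont and 6.66 and 6.99 in MDA-MB-468 shEZH2 (-1.73 and 0.17; difference -1.90, adjusted p = 0.000152). FAM171B (cluster 8046895) read 8.02 and 8.0 in set a, 6.70 and 5.47 in HCC70 shEZH2, 9.03 and 9.22 in MDA-MB-468 shCont and 8.99 and 9.12 in MDA-MB-468 shEZH2. Its HCC70 knockdown arrays were more than 1 log2 unit apart, both below the controls (-1.93 ± 0.27, adjusted p = 0.00101; difference -1.86 ± 0.39, adjusted p = 0.0111).

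Of the MDA-MB-468-specific rises with 1 symbol, the 5 with the largest differences were SAA1, DSE, GDA, KRTCAP3 and GALNT12. SAA1 (cluster 7938758), an acute phase apolipoprotein with the near-identical neighbour SAA2, read 6.46 and 6.21 in set a, 6.97 and 7.14 in set b, 5.98 and 5.87 in HCC70 shEZH2, 6.54 and 6.30 in MDA-MB-468 shCont and 7.95 and 7.81 in MDA-MB-468 shEZH2. The MDA-MB-468 knockdown arrays lay above all others, with a rise of 1.46 ± 0.14 (adjusted p = 0.000289) beside -0.42 in HCC70 (adjusted p = 0.0867), a difference of -1.88 (adjusted p = 0.000228). Against set b SAA1 fell in HCC70 by 1.13 (adjusted p = 0.000171), so with that control it was an opposite change (difference -2.60). DSE (cluster 8121588), the epimerase that forms dermatan sulfate, read 8.95 and 8.88 in set a, 9.09 and 9.07 in HCC70 shEZH2, 6.64 and 6.92 in MDA-MB-468 shCont and 8.40 and 8.37 in MDA-MB-468 shEZH2. DSE rose by 1.61 ± 0.09 in MDA-MB-468 (adjusted p = 2.36e-06) toward the HCC70 level, where it stood at 0.16 (adjusted p = 0.278; difference -1.45, adjusted p = 4.77e-05). GDA (cluster 8155802), a guanine deaminase, read 7.61 and 7.52 in set a, 7.89 and 7.69 in HCC70 shEZH2, 5.22 and 5.26 in MDA-MB-468 shCont and 6.49 and 6.54 in MDA-MB-468 shEZH2. It rose by 1.27 in MDA-MB-468 (adjusted p = 2.88e-05; 0.22 in HCC70, and a called -0.28 against set b, adjusted p = 0.0493; difference -1.05, adjusted p = 0.000687). KRTCAP3 (cluster 8040949) rose by 0.70 in MDA-MB-468 (adjusted p = 0.014; difference -1.0, adjusted p = 0.00881), not called without shCont replicate 2 (0.45) or shEZH2 replicate 2 (0.65). GALNT12 (cluster 8156770), which starts the O-glycosylation of mucins, rose by 0.69 in MDA-MB-468 (adjusted p = 0.0199; not called without shCont replicate 1, 0.65, shCont replicate 2, 0.73, or shEZH2 replicate 1, 0.65). Its difference of -0.96 (adjusted p = 0.0151) was not called without set a replicate 1 (-0.90), was -0.29 with set b and did not hold.

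Among MDA-MB-468-specific falls the differences were smaller, apart from GLYATL2 (cluster 7948354), a glycine acyltransferase. GLYATL2 read 9.31 and 9.27 in set a, 9.89 and 9.49 in HCC70 shEZH2, 7.48 and 7.57 in MDA-MB-468 shCont and 5.87 and 6.07 in MDA-MB-468 shEZH2. It fell by 1.55 ± 0.14 in MDA-MB-468 (adjusted p = 0.000164) and stood at 0.40 in HCC70 (adjusted p = 0.0953; 0.60 and called without shEZH2 replicate 2), a difference of 1.95 (adjusted p = 0.000176; 1.2 with set b). The MDA-MB-468 calls of the remaining 4 leading falls all ended without MDA-MB-468 shCont replicate 2, the higher control array in each, and 3 of them also without shEZH2 replicate 1. NRBF2 (cluster 7927775), an autophagy regulator, read 7.15 and 7.5 in MDA-MB-468 shCont and 6.6 and 6.53 in MDA-MB-468 shEZH2 (-0.76, adjusted p = 0.01; -0.59 and not called without that array), with a difference of 1.16 (adjusted p = 0.00477) that held. RPGRIP1L (cluster 8001423), of the ciliary transition zone, read 7.18 and 7.53 against 6.48 and 6.70 (-0.76, adjusted p = 0.0139; -0.59 without that array and -0.66 without shEZH2 replicate 1, neither called; difference 1.15, adjusted p = 0.00668) and held. UBLCP1 (cluster 8109597), a phosphatase of the proteasome, read 9.26 and 9.34 against 8.04 and 8.57 (-1.0, adjusted p = 0.0115; -0.95 without that array and -0.73 without shEZH2 replicate 1, neither called). The UBLCP1 difference of 1.24 (adjusted p = 0.014) was not called without that array (1.2) or with set b (0.72, adjusted p = 0.0941). CCDC186 (cluster 7936419), which acts in dense-core vesicles, read 8.29 and 8.60 against 7.45 and 8.04 (-0.70, adjusted p = 0.0231; -0.55 without that array and -0.41 without shEZH2 replicate 1, neither called). The CCDC186 difference of 1.16 (adjusted p = 0.00792) was 0.67 with set b and did not hold.

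**Figure D4:**
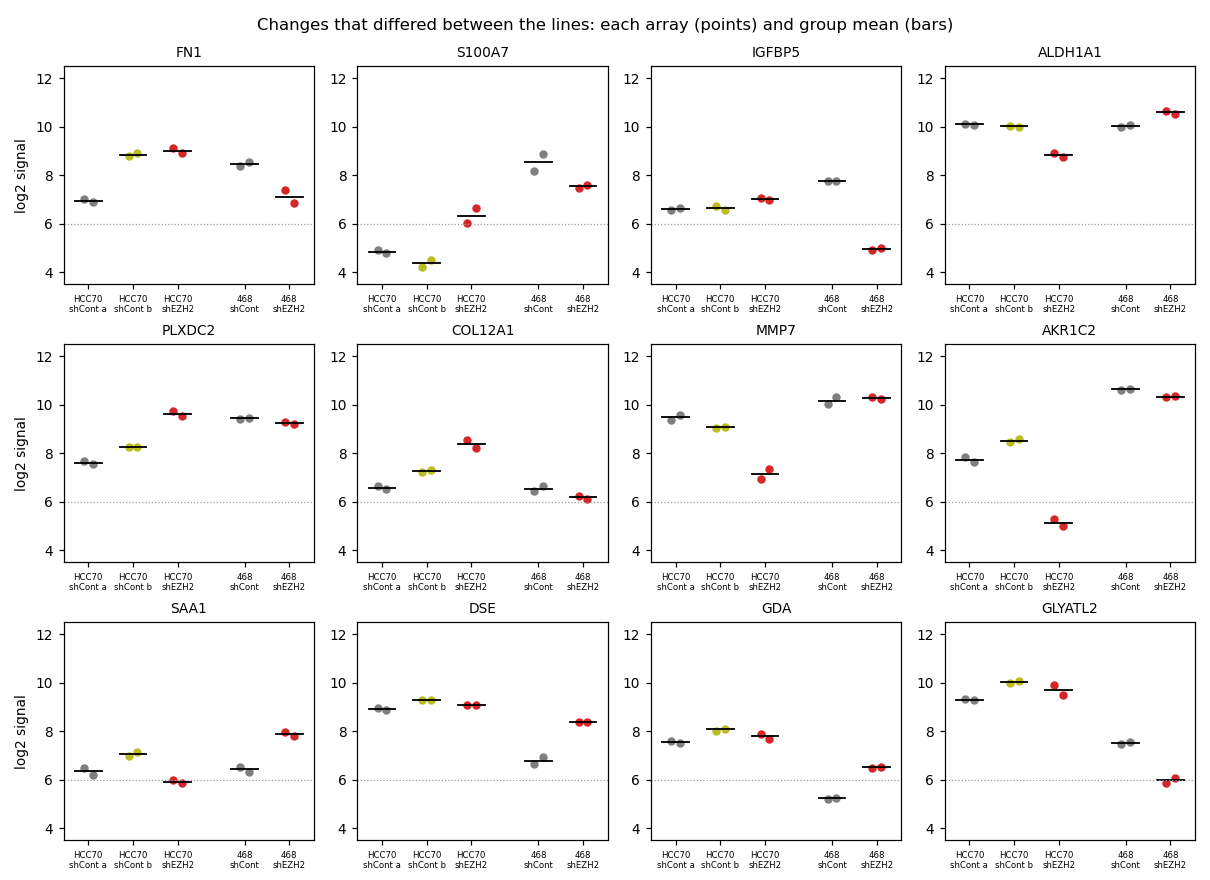
Log2 signal of each array (points) and group mean (bars) for 12 genes whose change differed between the lines, in the 3 HCC70 groups and the 2 MDA-MB-468 groups; the dotted line marks log2 6. FN1, S100A7 and IGFBP5 were higher in HCC70 shEZH2 than in set a and lower in MDA-MB-468 shEZH2 than in its control, ALDH1A1 the reverse, and FN1 in set b (8.78 and 8.91) lay close to HCC70 shEZH2.

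Of the lineage panel of KIT, KRT5, KRT14, KRT8, KRT18 and GATA3, the difference was called for KRT14 alone among members. KRT14 (cluster 8015366), a keratin of basal cells, read 10.19 and 10.15 in set a, 9.50 and 9.36 in set b, 9.42 and 9.28 in HCC70 shEZH2, 8.70 and 8.72 in MDA-MB-468 shCont and 8.77 and 8.59 in MDA-MB-468 shEZH2. KRT14 fell by 0.82 against set a (adjusted p = 0.000122), stood at -0.08 against set b and at -0.03 in MDA-MB-468. Its difference of -0.79 (adjusted p = 0.00251) was -0.05 with set b and did not hold. KRT5 (-0.27, adjusted p = 0.12), KRT8 (0.32, adjusted p = 0.134), KRT18 (0.41, adjusted p = 0.0658) and GATA3 (0.46, adjusted p = 0.148) did not pass the test of the difference; KRT18 passed without HCC70 shEZH2 replicate 1 (0.53) and GATA3 without MDA-MB-468 shEZH2 replicate 1 (0.73). KIT, the receptor of luminal progenitors, lay below log2 6 in both MDA-MB-468 groups and is no member.

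Of 12 luminal progenitor markers 4 differed, 1 above 0 and 3 below, against 13.3% of all genes. With set b 1 lay above and 6 below, against 16.8% of all genes either way. EHF (cluster 7939314), an epithelial ETS factor, read 7.99 and 7.94 in set a, 8.08 and 8.05 in HCC70 shEZH2, 9.19 and 9.47 in MDA-MB-468 shCont and 8.52 and 8.65 in MDA-MB-468 shEZH2. EHF fell in MDA-MB-468 (-0.74, adjusted p = 0.00198) and stood at 0.10 in HCC70, a difference of 0.84 ± 0.14 (adjusted p = 0.00416) that held. PROM1 and ALDH1A1, described above, were 2 of the 3 below 0; the PROM1 difference of -0.58 ± 0.13 (adjusted p = 0.0153) was not called without set a replicate 2 (-0.55) and was -1.47 with set b. Of 12 mature luminal markers 2 lay below 0, where 13.3% of all genes differed either way. AGR2 (cluster 8138381), a secretory pathway protein, fell in HCC70 (-0.79, adjusted p = 0.00361, against 0.08 in MDA-MB-468; difference -0.87 ± 0.19, adjusted p = 0.0153, and -0.88 and not called without set a replicate 2). MYLK (cluster 8090098), the myosin kinase of contractile basal cells, read 6.23 and 6.41 in set a, 7.34 and 7.32 in HCC70 shEZH2, 5.96 and 6.04 in MDA-MB-468 shCont and 6.12 and 6.00 in MDA-MB-468 shEZH2. MYLK rose by 1.01 in HCC70 alone (adjusted p = 2.44e-05; 0.06 in MDA-MB-468; difference 0.95 ± 0.12, adjusted p = 0.00086; 1.19 with set b).

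Part of the cell cycle list fell in MDA-MB-468. All 48 listed genes met the signal rule: 0 rose and 12 fell in MDA-MB-468, 0 rose and 1 fell in HCC70, and 8 differences were above 0 and 0 below (4 to 10 above when 1 array was left out, and 7 above and 3 below with set b). Over all genes 6.79% fell in MDA-MB-468 and 10% of differences lay above 0. All members gave 7.96% above 0 and 7.85% below with set b. At an unadjusted p under 0.05 in limma, 1 gene was higher in MDA-MB-468, 4 were higher in HCC70 and 2 differences were below 0. The median change was -0.14 in MDA-MB-468 against -0.054 over all genes. BUB1 (cluster 8054580), a kinase of the spindle checkpoint, read 8.90 and 8.81 in set a, 9.03 and 8.90 in HCC70 shEZH2, 10.03 and 10.14 in MDA-MB-468 shCont and 9.47 and 9.57 in MDA-MB-468 shEZH2. Its fall of 0.57 (adjusted p = 0.00198) gave a difference of 0.68 ± 0.11 (adjusted p = 0.00326) that held. NUSAP1 (cluster 7982889), which bundles spindle microtubules, fell by 0.70 (-0.51 and not called without shCont replicate 2; difference 0.89 ± 0.18, adjusted p = 0.0103). KIF20A (cluster 8108301), a kinesin of cytokinesis, fell by 0.44 (not called without shCont replicate 2, -0.42, or shEZH2 replicate 1, -0.43; difference 0.70 ± 0.13, adjusted p = 0.00732).

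Hypoxia and glycolysis genes held several opposite changes. Of 24 measured, 4 rose and 1 fell in HCC70, 0 rose and 5 fell in MDA-MB-468, and 6 differences were above 0 and 0 below (4 to 6 above with 1 array left out; 5 above and 4 below with set b), with 4 opposite changes. Over all genes 7.7% rose in HCC70, 6.79% fell in MDA-MB-468 and 10% of differences lay above 0. All members gave 7.96% above 0 and 7.85% below with set b. At an unadjusted p under 0.05 in limma, 1 gene was higher in MDA-MB-468 and 1 difference was below 0. BNIP3 was among those above 0 with both sets. PFKFB3, which drives glycolysis, rose by 0.75 against set a and stood at -0.16 against set b. BNIP3L, a relative of BNIP3, rose by 0.44 in HCC70 against set a (0.45, 0.43 and 0.29, none called, without set a replicate 1, set a replicate 2 or shEZH2 replicate 1) and fell by 0.32 against set b (adjusted p = 0.0306). Its MDA-MB-468 fall of 0.37 (adjusted p = 0.0407) ended without any 1 of 5 arrays (-0.39 to -0.28), MDA-MB-468 shEZH2 replicate 1 among them. PFKFB3 fell by 0.37 in MDA-MB-468 (adjusted p = 0.016; -0.38 without shCont replicate 2 and -0.31 without shEZH2 replicate 2, neither called).

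The feedback genes that report MAP kinase activity were read next. Of 17 measured, 3 rose and 0 fell in MDA-MB-468, 1 rose and 1 fell in HCC70, and 1 difference lay above 0 and 3 below (0 above and 11 below with set b); 2 genes were lower in MDA-MB-468 at an unadjusted p under 0.05 in limma. Over all genes 2.08% rose in MDA-MB-468 and 3.31% of differences lay below 0. All members gave 7.96% above 0 and 7.85% below with set b. ETV4 (cluster 8015806), an ETS factor downstream of ERK, read 6.06 and 6.06 in set a, 6.05 and 5.91 in HCC70 shEZH2, 6.15 and 6.13 in MDA-MB-468 shCont and 6.67 and 6.84 in MDA-MB-468 shEZH2. It rose by 0.62 in MDA-MB-468 (adjusted p = 0.00471; difference -0.70 ± 0.14, adjusted p = 0.00929; -1.54 with set b, where the HCC70 change was a called fall of 0.92, adjusted p = 5.26e-05). DUSP5 (cluster 7930413), a nuclear ERK phosphatase, rose by 0.46 in MDA-MB-468 (adjusted p = 0.00357; -0.04 in HCC70; difference -0.50 ± 0.10, adjusted p = 0.00888), and fell in HCC70 against set b by 0.61 (adjusted p = 9.02e-05; difference -1.08). HBEGF (cluster 8114572), a ligand of EGFR, rose by 0.56 in MDA-MB-468 (adjusted p = 0.0202), not called without shCont replicate 1 (0.48), shCont replicate 2 (0.65) or shEZH2 replicate 2 (0.46). Its difference was -0.79 ± 0.18 (adjusted p = 0.0151), not called without set a replicate 1 (-0.73), and -1.93 with set b, against which HBEGF fell in HCC70 by 1.37 (adjusted p = 1.53e-05).

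Cholesterol and fatty acid synthesis genes fell in HCC70 in 7 of 24 and in MDA-MB-468 in 2 (4.34% and 6.79% of all genes), with 0 rises in either line (0 and 1 at limma's unadjusted p under 0.05). The difference was below 0 in 2 (MVK and ACSS2) with set a and in 13 with set b. Over all genes 3.31% lay below 0 with set a, and over all members 7.85% with set b. The MVK difference of -0.59 (adjusted p = 0.0417; -0.60 with set b) was not called without any 1 of 6 arrays (-0.65 to -0.48), all but HCC70 shEZH2 replicate 1 and MDA-MB-468 shEZH2 replicate 1. ACSS2 (cluster 8062041), which makes acetyl-CoA from acetate, fell by 0.49 in HCC70 (-0.44 and not called without set a replicate 1) and stood at 0.02 in MDA-MB-468; its difference of -0.51 (adjusted p = 0.0321) was -1.16 with set b and ended without any of 6 single arrays (-0.57 to -0.44). Of 20 NRF2 targets and aldo-keto reductases, 0 rose in either line (4 and 0 were higher at limma's unadjusted p under 0.05), 3 fell in HCC70 and 7 in MDA-MB-468. Over all genes 7.7% rose and 4.34% fell in HCC70, and 2.08% rose and 6.79% fell in MDA-MB-468. NQO1 (cluster 8002303), a quinone reductase, fell by 0.43 in MDA-MB-468 (-0.37 and not called without shCont replicate 2; difference 0.62 ± 0.10, adjusted p = 0.00258).

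Among 24 WNT, BMP and TGF-beta pathway genes, 7 differences lay above 0 and 2 below, of which 4 and 2 were called the same way with set b. The shares over all genes were 10% above 0 and 3.31% below with set a. TGFBR2 (cluster 8078350), a receptor of TGF-beta, rose by 0.65 in HCC70 (adjusted p = 0.00298) and fell by 0.45 in MDA-MB-468 (adjusted p = 0.03), where the call ended without any 1 of the 4 arrays (-0.53 to -0.37). Against set b TGFBR2 was at 0.07, so it did not hold. Of 14 genes described as Polycomb targets, 2 rose and 1 fell in HCC70, 0 rose and 2 fell in MDA-MB-468 (1 higher and 3 lower at limma's unadjusted p under 0.05), and 3 differences lay above 0. Over all genes 7.7% rose and 4.34% fell in HCC70, and 2.08% rose and 6.79% fell in MDA-MB-468. Of 7 HOX genes the difference was called in 0 with set a, against 13.3% of all genes. In limma 1 HOX gene fell in HCC70 and 0 changed in MDA-MB-468. Unadjusted p-values under 0.05 were given to 3 HOX differences with set a and to 1 MDA-MB-468 change. With set b 1 HOX difference lay above 0 and 1 below, against 16.8% of all genes either way, and 1 HOX gene rose and 1 fell in HCC70. With 7 genes, such counts cannot be told from the shares over all genes.

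**Figure D5:**
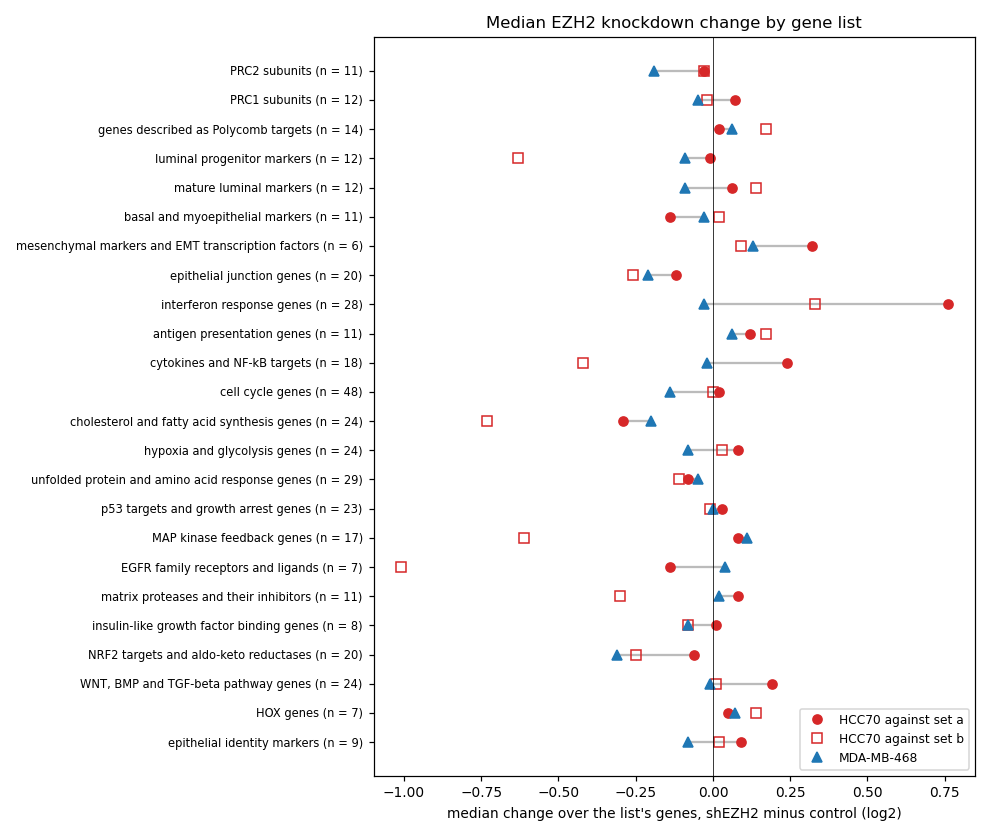
Median change under EZH2 knockdown over the genes of each list with at least 5 members (x axis, log2), for HCC70 against set a (filled circles), HCC70 against set b (open squares) and MDA-MB-468 (triangles). The interferon list lies at 0.76, 0.33 and -0.03, and the MAP kinase list at 0.08, -0.61 and 0.11.

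Zinc finger genes, most of which encode DNA-binding proteins, were a family noticed in the values. Of 238 genes with a symbol beginning with ZNF, 45 rose and 1 fell in HCC70, against 7.7% and 4.34% of all genes. In MDA-MB-468 1 rose and 23 fell, against 2.08% and 6.79% of all genes. The difference lay above 0 in 65 (27.3%) and below in 4, against 9.64% and 3.28% of the other 9148 genes. The median change was 0.14 in HCC70 and -0.15 in MDA-MB-468. With set b 29 lay above 0 and 7 below, against 782 and 741 of the other 9148 genes. All members gave 7.96% above 0 and 7.85% below with set b. The median difference of the ZNF genes went from 0.32 to 0.12. Small nucleolar RNAs, likewise noticed, gave 12 of 61 above 0 (19.7%) and 1 below (1.64%), and 18 and 3 with set b. SNORD60 (cluster 7998722) read 7.28 and 7.32 in set a, 8.0 and 8.39 in HCC70 shEZH2, 6.24 and 6.86 in MDA-MB-468 shCont and 5.70 and 5.50 in MDA-MB-468 shEZH2 (0.89 and -0.95; difference 1.84 ± 0.31, adjusted p = 0.00378; 2.17 with set b). SNORD33 (cluster 8030362) gave 0.86 and -0.77 (difference 1.62 ± 0.29, adjusted p = 0.00509; 1.88 with set b). In MDA-MB-468 the calls of both ended without shCont replicate 2 (-0.64 and -0.44), shEZH2 replicate 1 (-1.05 and -0.93) or shEZH2 replicate 2 (-0.85 and -0.61), and that of SNORD33 also without either array of set a (-0.77). In HCC70 they ended without set a replicate 1 (0.87 and 0.82), set a replicate 2 (0.91 and 0.90) or shEZH2 replicate 2 (0.70 and 0.63). These RNAs lie within introns of host genes, whose transcripts the probes may also detect.

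The members of each category were then read on HCC70 arrays that the comparison did not use, those with an shRNA against EED set beside set b, which shares no array with the difference described here. EED itself fell by 0.82 there (limma adjusted p = 0.000347), and EZH2, a shared fall, was 0.24 lower (limma adjusted p = 0.0456). Over all members 6.46% were higher and 7.26% lower there. Of 73 shared falls 42 (57.5%) were lower and 1 higher, and of 24 opposite changes that were lower in HCC70 14 (58.3%) were lower and 0 higher. Of the 106 opposite changes that were higher in HCC70, 22 (20.8%) were higher and 13 (12.3%) lower. Of 54 shared rises 21 (38.9%) were higher and 8 lower. HCC70-specific rises were higher in 103 of 478 (21.5%) and lower in 41, and HCC70-specific falls were lower in 74 of 203 (36.5%) and higher in 10. MDA-MB-468-specific rises were higher in 7 of 182 (3.85%) and lower in 23 (12.6%), and MDA-MB-468-specific falls were higher in 38 and lower in 38 of 315. Where EZH2 cDNA was expressed (fip EZH2, against the plKO Puro vector), the EZH2 cluster read only 0.29 higher, which limma did not call (adjusted p = 0.0961). On these arrays 0.757% of members were higher and 0.036% lower. Of 73 shared falls 9 (12.3%) were higher and 1 lower, and of 54 shared rises 3 (5.56%) were higher and 0 lower. HCC70-specific falls were higher in 4.43% and MDA-MB-468-specific rises in 3.85%. In every category more members were called higher than lower.

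Promoters were read for 7944 of the 9637 genes. The ratio of observed to expected CpG, a measure of CpG islands, had a median of 0.84 over all member genes with a promoter. It was 0.72 for opposite changes, 0.83 for HCC70-specific rises, 0.80 for HCC70-specific falls, 0.85 for MDA-MB-468-specific rises and 0.83 for MDA-MB-468-specific falls. For shared rises and shared falls the values were 0.74 and 0.69, so the low value of opposite changes was not particular to them. For these 2 sets the check was void, since only 76.1% and 75.4% of their genes had a promoter in the table.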

How the data were processed

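The authors deposited 1 log2 signal for each transcript cluster and array, made with RMA in Affymetrix Expression Console per the submitters' processing notes. RMA corrects background, normalizes between arrays and summarises probes. Software versions and the genome build: not given in the sources used here. The table held 0 sample columns that were left unused, and no scan dates, so batches were not tested. There is no read depth on an array; with 2 arrays a group, precision is limited by their number.

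Titles of the samples gave the groups. With limma 3.58.1 in R 4.3.3 (lmFit, eBayes), 8 group means were estimated from the 16 arrays together, with 8 residual and 3.69 prior degrees of freedom, over the 16175 clusters at log2 6 or above on at least 2 arrays. Contrasts were two-sided, adjusted by Benjamini-Hochberg over all of them and called at an adjusted p under 0.05. The difference is (HCC70 shEZH2 minus set a) minus (MDA-MB-468 shEZH2 minus shCont). Errors are standard errors of the fit, which was tested on simulated data.

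Symbols came from the platform annotation, which can be old; only clusters with 1 symbol were named, taking the brightest on average over the 8 arrays where a gene had several. Entrez identifiers of 10095 of the 10100 members with 1 symbol were in a RefSeq gene table. Named by rule were EZH2, EED and SUZ12, the 5 shared rises and falls with the largest smaller change, the 3 opposite changes each way, the 5 line-specific changes each way with the largest difference, a lineage panel and up to 3 called members of each gene list; others are said to be chosen after their values were seen. The part, its members and the lists were chosen with earlier results of these data known. Promoters are RefSeq sequences of GRCh38.p14.

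Replicate numbers did not pair the arrays: deviations of same-numbered arrays correlated at -0.112 to 0.0926 between the 4 groups. Alternatives tried were the other scrambled set, both sets, only the 8 arrays, other filters and signal rules, other normalizations, a variance trend, a replicate block and leaving out each array.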

Additional observations from a re-analysis of the deposited data

Results flagged for a closer look

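The change under EZH2 knockdown differed between HCC70 and MDA-MB-468 by the limma contrast in 1819 members, and that is why the genes named here are listed; differences are HCC70 minus MDA-MB-468 on the log2 scale with set a as control. Above 0 were FN1 (3.43), SNORD41 (2.85), S100A7 (2.48), PLXDC2 (2.23), COL12A1 (2.14), AK5 (2.13), S100A8 (2.11), ZNF626 (2.01), GLYATL2 (1.95), SLCO2A1 (1.24), UBLCP1 (1.24), CCDC186 (1.16), NRBF2 (1.16) and RPGRIP1L (1.15). Below 0 were PLA2G2A (-2.60), MMP7 (-2.43), AKR1C2 (-2.30), SLC6A14 (-2.25), RNF128 (-1.90), SAA1 (-1.88), FAM171B (-1.86), ALDH1A1 (-1.80), SERPINB9 (-1.59), EPHB6 (-1.46), DSE (-1.45), GDA (-1.05), KRTCAP3 (-1.0), GALNT12 (-0.96) and KRT14 (-0.79). With set b as the HCC70 control, the differences of GALNT12, UBLCP1, CCDC186 and KRT14 were not called, so these did not hold. FN1 and EPHB6 did not hold as opposite changes because their HCC70 change was not called. Their differences were still called with set b (1.54 and -0.85). Groups of 2 arrays are too small for a test of single outlying arrays.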

How the results depend on the processing

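The HCC70 control, the arrays in the fit and MDA-MB-468 shCont replicate 2 moved the results most often; the causes were not tested. With set b, shared falls numbered 258, HCC70-specific falls 771 and MDA-MB-468-specific falls 196; with both sets, shared falls numbered 172 and HCC70-specific falls 376. Only the 8 arrays in the fit (4 residual degrees of freedom) gave 375 differences, 5 shared rises, 13 shared falls, 9 opposite changes, 131 and 44 HCC70-specific rises and falls, and 25 and 24 in MDA-MB-468. With no filter there were 1138 differences, 61 opposite changes, 317 and 118 HCC70-specific rises and falls, and 87 and 166 in MDA-MB-468. Arrays centred on their medians gave 27 shared rises, 307 and 130 HCC70-specific rises and falls and 80 MDA-MB-468-specific rises; quantile normalization once more gave 208 MDA-MB-468-specific falls. The share of called differences above 0 was 67.5%, 50.3% with set b, 56.7% after quantile normalization and 74.3% with centred arrays. Leaving out 1 array gave 707 to 2282 differences, 15 to 74 shared rises, 34 to 109 shared falls, 25 to 201 opposite changes, 167 to 653 and 56 to 264 HCC70-specific rises and falls, and 28 to 349 and 38 to 427 in MDA-MB-468. The replicate block gave 1947 differences and changed the side of no named difference.

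Of 115 named differences, 92 kept direction and side of the threshold with set b, 106 with both sets, 84 with only the 8 arrays, and 101 to 114 with 1 array left out. Among named values that were called with set a, the sign turned only with set b or, for CLDN3, both sets; some values not called changed sign near 0 when 1 array was left out, such as the differences of SLC6A17 (0.09, lowest -0.23) and VSNL1 (0.05, lowest -0.02). With set b the difference and the HCC70 change were -1.07 and -0.17 for VIM, -0.66 and -0.97 for CLDN3, -0.38 and -0.37 for ICAM1 and -0.02 and -0.35 for TIMP1. The HCC70 change with set b was 0.05 for EPHB6, -0.28 for GDA, -0.16 for PFKFB3, -0.32 for BNIP3L and -0.47 for DUSP6, and the GUCY1A1 difference was -0.55. With both sets CLDN3 was at -0.12 and -0.44. Signal near log2 6 and 2 arrays a group limit what could be called.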
